A study of Mus musculus with 48 samples.

Results

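The chaperonin containing TCP-1, called CCT or TRiC, is built from 8 different subunits, encoded by Tcp1, Cct2, Cct3, Cct4, Cct5, Cct6a, Cct7 and Cct8. Each subunit gene was found by its symbol among the 50600 genes of the count files, so that 8 of 50600 genes are described here, and all 8 passed the filter on low counts that left 13889 genes for testing. mPDAC is a cell line from a mouse pancreatic ductal adenocarcinoma, which the labels describe as of FVB/N x C57BL6 background and 8-week-old. The 3 N6L cultures, numbered 1, 2 and 3, received 50 µM N6L, an antagonist of the nucleolar protein nucleolin, for 48 h, and the 3 non-treated (NT) cultures, numbered 1, 2 and 4, are the control. Each culture was exposed to emetine, lysed and freed of nuclei and mitochondria, and the lysate gave a cytoplasmic and a polysomal library of poly(A) RNA, 12 libraries in all.

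Most new proteins fold unaided or with simpler chaperones, but actins, tubulins and many proteins with WD40 propellers reach their native form only inside the chamber of CCT. The complex is a pair of stacked rings, each ring holds a single copy of every subunit, and each subunit is an ATPase whose closing lid encloses the client. Within a ring the order is Cct2, Cct4, Tcp1, Cct3, Cct6a, Cct8, Cct7 and Cct5. Prefoldin hands unfolded actin and tubulin to CCT, phosducin-like proteins assist or regulate it, and the tubulin folding cofactors take over tubulin once CCT releases it. Because every subunit is needed in the same number, the balance between the 8 mRNAs is of interest, within the cytoplasm and within the polysomes.

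Total counts ranged from 19519911 to 44972333 per library, and counts of single subunits from 3097 to 31884. Values are CPM, the counts of a gene scaled to library size with TMM factors, so each is relative to the other mRNAs of its library, and a shift of total RNA per cell or of cell number cannot be told apart from them. Of 8 epithelial markers 7 were above 1 CPM in every library, with sums of 6522 to 10746 CPM, but Epcam, a defining marker, stayed between 0.0349 and 0.301 CPM. Most markers of other cells were near background: 0 of 5 fibroblast, 0 of 3 endothelial and 0 of 4 immune markers exceeded 1 CPM in all 12 libraries. The immune marker Cd68 held 0.906 to 2.03 CPM, and the endocrine markers had no read. Among 4 acinar markers only Cela1 was above 1 CPM in all 12 libraries. With 27.6 to 82.7 CPM it was not near background. Within the markers, Sox9 was higher with N6L in both fractions (log2 change 1.09 and 1.08), and in the cytoplasm Krt7 was lower (-0.97) and Pecam1, at 0.361 CPM or less on average there, higher (1.93). Their part in the results below was not tested. The N6L culture 3 stood apart. Over all genes the log2 ratio of polysome to cytoplasm had an SD of 1.04 in that culture, against 0.48 to 0.51 in the NT cultures and 0.53 and 0.69 in N6L cultures 1 and 2. For the main results in polysomes and between fractions, values without its polysomal library are therefore given as well.

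All 8 subunit mRNAs were abundant. In the NT cytoplasm the subunits together held 4224 ± 186 CPM (SD, n = 3) and in the N6L cytoplasm 3495 ± 62.0 CPM. The polysomal sums were 4474.5 ± 141 CPM in NT and 3277 ± 536 CPM in N6L, the latter with 3849 CPM in culture 1, 3197 CPM in culture 2 and 2786 CPM in culture 3. The sums of the 2 treatments did not overlap in either fraction. Compared per length, as CPM per kb of the principal annotated transcript, the subunit genes were not equally represented. Cct5 led the NT cytoplasm with 406 ± 63.0 CPM per kb (SD, n = 3), followed by Cct2 with 301 ± 1.81, Cct3 with 299 ± 17.9, Cct7 with 283 ± 11.8 and Tcp1 with 244 ± 26.2 CPM per kb. Cct4 with 147 ± 10.985, Cct6a with 147 ± 11.5 and Cct8 with 115 ± 6.81 CPM per kb closed the order. Neighbours from Cct2 to Tcp1 overlapped between cultures, as did Cct4 and Cct6a, whereas Cct5 lay above Cct2, Tcp1 above Cct4 and Cct6a above Cct8 in all 3 cultures. The highest and the lowest mean differed 3.53-fold in the NT cytoplasm and 4.22-fold in the N6L polysomes, where Cct5 and Cct8 again formed the ends with 379 ± 70.9 and 89.9 ± 33.7 CPM per kb. Cct5 was first and Cct8 last in all 4 groups. The middle of the order differed: Cct7, which overlapped Cct2 and Cct3 in NT polysomes with 317 ± 15.8 CPM per kb, was the second in N6L polysomes with 260.5 ± 13.4 CPM per kb, above Cct2 with 210.25 ± 25.5 CPM per kb in every culture. In the N6L cytoplasm Cct2, Cct7, Cct3 and Tcp1 lay between 216 and 206 CPM per kb and overlapped.

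**Figure D1:**
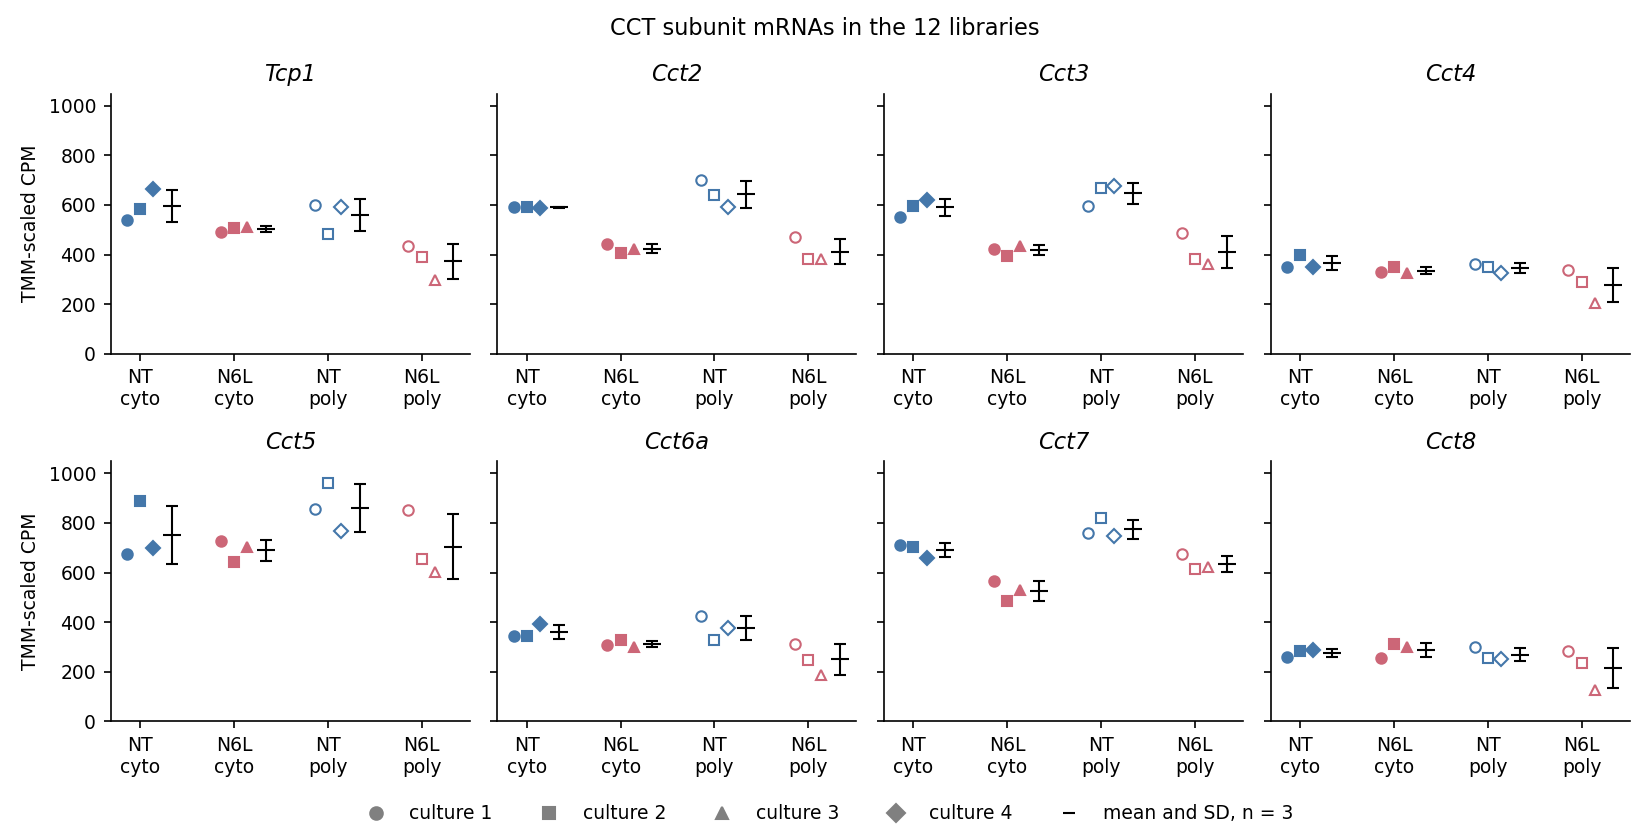
TMM-scaled CPM (linear y axis) of the 8 CCT subunits in the cytoplasm (filled) and polysomes (open) of non-treated (NT, blue) and N6L-treated cells (red). Each point is a culture and the bar its group mean with SD, n = 3. Cct2 and Cct3 lie lower with N6L in both fractions, and N6L culture 3 (triangles) is the lowest polysomal value of every subunit but Cct7.

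The genes sit on 8 different chromosomes, so no pair shares a promoter. In GRCm38 coordinates (mm10, GENCODE vM21), Cct2 (ENSMUSG00000034024) lies at chr10:117051001-117063814 on the minus strand, Cct3 (ENSMUSG00000001416) at chr3:88297116-88321767 on the plus strand, Cct7 (ENSMUSG00000030007) at chr6:85451514-85468475 on the plus strand and Cct8 (ENSMUSG00000025613) at chr16:87483326-87495873 on the minus strand. Tcp1 (ENSMUSG00000068039) lies at chr17:12915701-12925067, Cct4 (ENSMUSG00000007739) at chr11:22990519-23003780 and Cct6a (ENSMUSG00000029447) at chr5:129786998-129846371, all on the plus strand, and Cct5 (ENSMUSG00000022234) at chr15:31590800-31601804 on the minus strand. The genes are alike in exon number, with 11 to 16 exons in the principal transcript. Coding sequences run from 1605 (Cct2) to 1668 bases (Tcp1), except for Cct6a, for which none is annotated. RefSeq promoter windows (GRCm38.p6) matched 7 subunits, and Cct4 had none. The 4 shown are those of Cct2 and Cct3, which were lower with N6L in both fractions, and of Cct7 and Cct8, whose levels were the least alike. Each run reads 5′ to 3′ on the strand of the gene and covers up to 250 bases before the RefSeq start, without bases inside the gene's own GENCODE model. Capitals mark CCAAT or its reverse complement ATTGG, and CCGGAAG or CTTCCGG, a core bound by ETS factors. The windows are chr10:117063853-117064102 on the minus strand, chr3:88296885-88297115 on the plus strand, chr6:85451255-85451504 on the plus strand and chr16:87495874-87496119 on the minus strand.
Cct2: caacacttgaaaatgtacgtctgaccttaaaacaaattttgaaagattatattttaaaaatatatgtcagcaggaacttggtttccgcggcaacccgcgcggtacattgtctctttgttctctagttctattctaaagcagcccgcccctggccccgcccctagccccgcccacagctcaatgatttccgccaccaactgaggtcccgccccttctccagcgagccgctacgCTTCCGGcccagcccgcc
Cct3: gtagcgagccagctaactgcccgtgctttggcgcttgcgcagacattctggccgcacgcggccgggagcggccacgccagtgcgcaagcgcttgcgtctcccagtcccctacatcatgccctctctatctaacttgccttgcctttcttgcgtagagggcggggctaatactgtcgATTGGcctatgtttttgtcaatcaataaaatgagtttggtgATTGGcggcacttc
Cct7: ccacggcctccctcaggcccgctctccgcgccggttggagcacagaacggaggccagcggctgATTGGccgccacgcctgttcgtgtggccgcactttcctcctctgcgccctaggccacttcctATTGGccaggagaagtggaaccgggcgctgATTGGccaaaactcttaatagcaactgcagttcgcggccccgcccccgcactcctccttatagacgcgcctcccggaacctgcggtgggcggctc
Cct8: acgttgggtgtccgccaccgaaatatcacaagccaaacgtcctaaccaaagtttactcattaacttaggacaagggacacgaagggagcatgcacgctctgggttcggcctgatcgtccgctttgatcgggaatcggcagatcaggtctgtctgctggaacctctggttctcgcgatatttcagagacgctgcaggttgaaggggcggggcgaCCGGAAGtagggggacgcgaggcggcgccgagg
On either strand CCAAT was present in the 250-base windows of 4 of 7 subunits, Tcp1, Cct3, Cct6a and Cct7. Since Cct2 and Cct5 have 2 windows each, that is 4 of 9 windows, against 33.9% of all 32851 windows. In Cct7 the matches of CCAAT began 187, 125 and 95 bases before the start. CCGGAAG was found in Cct2 and Cct8, 2 of 9 windows, against 6.91% of all windows. The GC box GGGCGG was found in all 7 subunits and in 8 of 9 windows, against 32.7%. Pairs of heat shock half-sites spelled GAANNTTC or TTCNNGAA were found only in a second start of Cct2 and in Cct5. Each was in 1 of 9 windows, against 6.69% and 7.17% of all windows. No matches of different motifs overlapped, and a match of letters is a description only. The windows of Tcp1 and Cct6a lie within longer transcripts annotated for the same genes. The Cct8 window also overlaps an exon of B130034C11Rik, a gene without coding sequence on the opposite strand.

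The cytoplasmic comparison asked whether the amount of each mRNA differed after N6L. Cct2, Cct3 and Cct7, the subunits known as CCT beta, gamma and eta, were lower in the N6L cytoplasm and passed the test. Cct2 fell by 28.3%, Cct3 fell by 29.2% and Cct7 fell by 23.8%. The other 5 did not pass, and none was higher past the limit. Thus 3 of 8 subunits were called at an adjusted p under 0.05 (edgeR quasi-likelihood test, Benjamini-Hochberg over 13889 genes), while 28.3% of all genes were called and 13.8% were called lower. Point estimates were below 0 for 7 of 8 subunits, against 47.2% of all genes, or for 5 subunits when libraries were scaled by their totals alone, which moved the median of all genes up by 0.14. The median log2 change of the subunits was -0.23, beside 0.04 over all genes tested.

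Cct2 was even among the NT cultures. Its 3 NT libraries held 593, 592 and 586 CPM and its N6L libraries 443, 406 and 421 CPM. The groups were far apart relative to their spread, with a log2 change of -0.48 ± 0.14 (SE, adjusted p = 0.0191). Cct3 measured 552, 597 and 622 CPM in NT and 424, 394 and 434 CPM in N6L. Its log2 change was -0.50 ± 0.14 (SE, adjusted p = 0.0205), again without overlap. Cct7 had 712, 702 and 658 CPM in NT and 565, 484 and 528 CPM in N6L, a log2 change of -0.39 ± 0.13 (SE, adjusted p = 0.0337).

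Tcp1, the alpha subunit that gave the complex its name, had 539.8, 585 and 666 CPM in NT and 491, 509 and 511 CPM in N6L. Its groups did not overlap either, yet the log2 change of -0.25 ± 0.16 (SE) did not pass (adjusted p = 0.259). Cct6a, the zeta subunit, ranged from 344 to 394 CPM in NT and from 299.7 to 326 CPM in N6L, with an adjusted p of 0.369. In total 5 of 8 subunits were lower in every N6L culture than in every NT culture, against 25.6% of all genes. Cct4, Cct5 and Cct8 overlapped between treatments. Cct5 was spread most widely, with 674, 887 and 698 CPM in NT and 727, 644 and 701 CPM in N6L. For Cct8, the theta subunit, NT gave 257, 283 and 287 CPM and N6L gave 256, 311 and 299 CPM, and the 95% interval of its log2 change ran from -0.41 to 0.54. The interval of Cct4 ran from -0.49 to 0.23 and that of Cct5 from -0.48 to 0.23, so decreases as large as that of Cct7 lie within them.

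The 3 cytoplasmic calls were not all kept when a culture was left out: 0 remained without NT culture 2 or without N6L culture 2, Cct3 alone without NT culture 1, Cct2 and Cct7 without NT culture 4, and Cct2 and Cct3 without N6L culture 3. None of the 3 passed with library totals alone (adjusted p from 0.0773 to 0.145) or without the filter on low counts (0.0760 to 0.211).

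In polysomes the comparison asked whether the level of each mRNA, relative to the other polysomal mRNAs, differed after N6L. All 8 subunits had log2 changes below 0, from -0.66 to -0.29, where 49.9% of all genes lay below 0, and they were below 0 under each of the 18 alternative settings too. Tcp1, Cct2, Cct3 and Cct6a passed the test, 4 of 8 subunits, while 9.67% of all genes were called and 3.66% were called lower. The median log2 change was -0.45, beside 0.00 over all genes tested. The same 5 subunits as in the cytoplasm, Tcp1, Cct2, Cct3, Cct6a and Cct7, were lower in every N6L culture than in every NT culture, against 11.9% of all genes.

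Cct2 had 700.5, 639 and 591 CPM in NT polysomes and 469.6, 384 and 382 CPM in N6L polysomes. Its log2 change was -0.64 ± 0.14 (SE, adjusted p = 0.0115). Cct3 had 598, 667 and 677 CPM in NT and 485, 383 and 364 CPM in N6L, a log2 change of -0.66 ± 0.14 (SE, adjusted p = 0.0137). The fitted level with N6L was 0.640 of that in NT for Cct2 and 0.634 for Cct3, and in both the highest N6L culture lay far below the lowest NT culture. Tcp1 had 602, 483 and 591 CPM in NT and 435, 389 and 297 CPM in N6L, with a log2 change of -0.58 ± 0.16 (SE, adjusted p = 0.0389). Cct6a had 426, 327 and 374 CPM in NT and 311, 249 and 187 CPM in N6L, a log2 change of -0.59 ± 0.18 (SE, adjusted p = 0.0485). For Cct6a the groups were close, with 327 CPM in NT culture 2 and 311 CPM in N6L culture 1, and N6L culture 3 lay well below the others.

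Cct7 had 759.7, 819 and 746 CPM in NT and 673, 612 and 622 CPM in N6L. Its groups did not overlap, but the log2 change of -0.29 ± 0.13 (SE) did not pass (adjusted p = 0.168). Cct4 had 362, 350.5 and 326 CPM in NT and 339.5, 289 and 205 CPM in N6L. Cct5 had 855, 959.9 and 766 CPM in NT and 852, 656 and 602 CPM in N6L. Cct8 had 298, 254 and 252 CPM in NT and 284, 235 and 127 CPM in N6L. In these 3 subunits N6L culture 1 lay within the NT range and culture 3 was the lowest, and the adjusted p ranged from 0.248 to 0.395.

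Without the polysomal library of N6L culture 3, Cct2 (adjusted p = 0.0139) and Cct3 (adjusted p = 0.0179) still passed, while Tcp1 (adjusted p = 0.0545) and Cct6a (adjusted p = 0.0702) did not. The log2 change of Cct8 then moved from -0.32 to -0.07 and that of Cct4 from -0.32 to -0.16. Leaving out NT culture 1 or N6L culture 2 left 0 of 8 subunits called, with 203 and 146 genes called in all. Leaving out NT culture 4 left Cct2 alone, with 623 genes called in all.

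**Figure D2:**
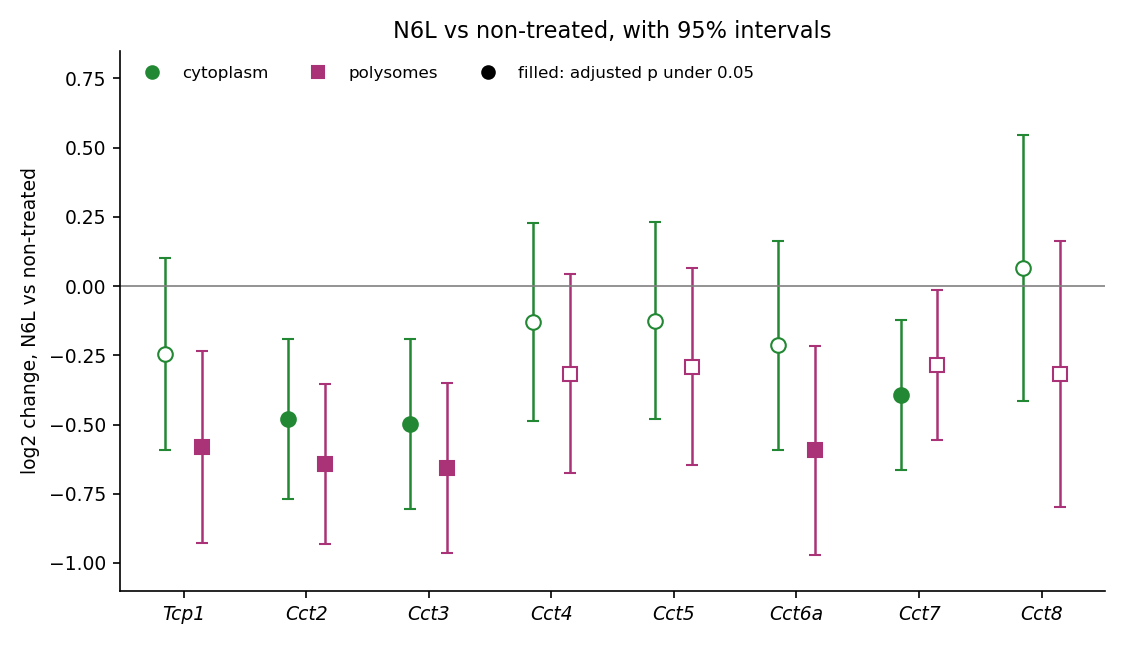
Log2 change of each CCT subunit, N6L against non-treated, in cytoplasm (green circles) and polysomes (magenta squares), with 95% intervals from the edgeR fit. Filled symbols mark an adjusted p under 0.05, reached by 3 subunits in the cytoplasm and 4 in polysomes; only Cct2 and Cct3 are filled in both.

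The ratio of polysome to cytoplasm describes how an mRNA is distributed between all cytoplasmic RNA and the polysomes. In NT cells 0 of 8 subunits differed between the fractions at an adjusted p under 0.05 (edgeR), beside 0.209% of all genes, and 0 of 8 had an unadjusted p under 0.05, against 13.4% of all genes. DESeq2 called 0 of 8 subunits as well, beside 2.02% of all genes. The log2 changes lay between -0.10 for Tcp1 and 0.19 for Cct5, with a median of 0.09. Cct7 was higher in every polysomal than in every cytoplasmic NT library, as were 9.59% of all genes. In N6L cells Tcp1 alone passed, with a log2 change of -0.43 ± 0.16 (SE, adjusted p = 0.0480), 1 of 8 subunits where 39.0% of all genes were called and 20.6% were called lower. The median of the 8 was -0.15, beside 0.03 over all genes, and it was -0.059 without the polysomal library of N6L culture 3, beside -0.0033 over all genes. Cct7 lay on the opposite side with a log2 change of 0.27 ± 0.13 (SE, adjusted p = 0.0982). Without overlap between the N6L fractions, Tcp1 was lower in polysomes, as were 28.5% of all genes, and Cct7 higher, as were 28.4%. With the culture as a replicate block, which pairs the fractions of a lysate, Tcp1 (-0.45, adjusted p = 0.0215) and Cct7 (0.28, adjusted p = 0.0286) both passed, in opposite directions. In that fit 53.7% of all genes were called, 26.1% higher and 27.6% lower. The call of Tcp1 was lost without the polysomal library of N6L culture 3 (-0.31, adjusted p = 0.145) and when any of NT cultures 1, 2 and 4 or N6L cultures 2 and 3 was left out. Without that library 20.7% of all genes were called. Without NT cultures 1, 2 and 4 the share was 33.4%, 33.5% and 41.8%, and without N6L cultures 2 and 3 it was 8.22% and 11.7%.

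The ratios in single cultures show how the subunits spread apart. Tcp1 had log2 ratios of 0.16, -0.28 and -0.17 in NT cultures 1, 2 and 4 and of -0.17, -0.39 and -0.78 in N6L cultures 1, 2 and 3. Cct8 had 0.21, -0.16 and -0.19 in NT and 0.15, -0.40 and -1.24 in N6L. Both overlapped between treatments, and the N6L values of culture 3 were the lowest. Cct7 had 0.09, 0.22 and 0.18 in NT and 0.25, 0.34 and 0.23 in N6L and was the only subunit without overlap, which 29.7% of all genes also showed. The difference of its means was 0.11, with an exact two-sided permutation p of 0.1, the smallest that 3 against 3 cultures allow, and 0.457 after adjustment over the 8 subunits. For the other 7 the N6L mean was below the NT mean, with exact permutation p values from 0.2 to 0.5.

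Within a culture the 8 ratios spanned 0.30, 0.50 and 0.37 log2 units in NT cultures 1, 2 and 4 and 0.43, 0.74 and 1.47 in N6L cultures 1, 2 and 3. Cct7 was the highest in all 3 N6L cultures and in NT cultures 2 and 4. Cct8 was the lowest in N6L cultures 2 and 3 and in NT culture 4. The spread over all genes also widened among the N6L cultures, from an SD of 0.53 in culture 1 to 0.69 and 1.04 in cultures 2 and 3. The ends of this order were also the ends of the order by GC content of the transcripts. Cct7 has the highest GC content of the 8, 54.0%, and Cct8 the lowest, 43.3%. Over the 8 subunits the ratio correlated with GC content with r = -0.04 (NT culture 1), 0.76 (NT 2), 0.87 (NT 4), 0.46 (N6L 1), 0.88 (N6L 2) and 0.88 (N6L 3). The rank correlation in N6L culture 3 was 0.64, since Cct2, with 47.2% GC, had the second-highest ratio there. Over 13867 genes r lay between 0.21 and 0.57, and between -0.57 and -0.30 with the logarithm of transcript length. The genes share libraries and base composition, so these are descriptions only. With offsets for transcript length and GC content together with the replicate block, the log2 change of Cct7 between fractions in N6L was 0.03 (adjusted p = 0.812) and that of Tcp1 -0.32 (adjusted p = 0.0316).

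**Figure D3:**
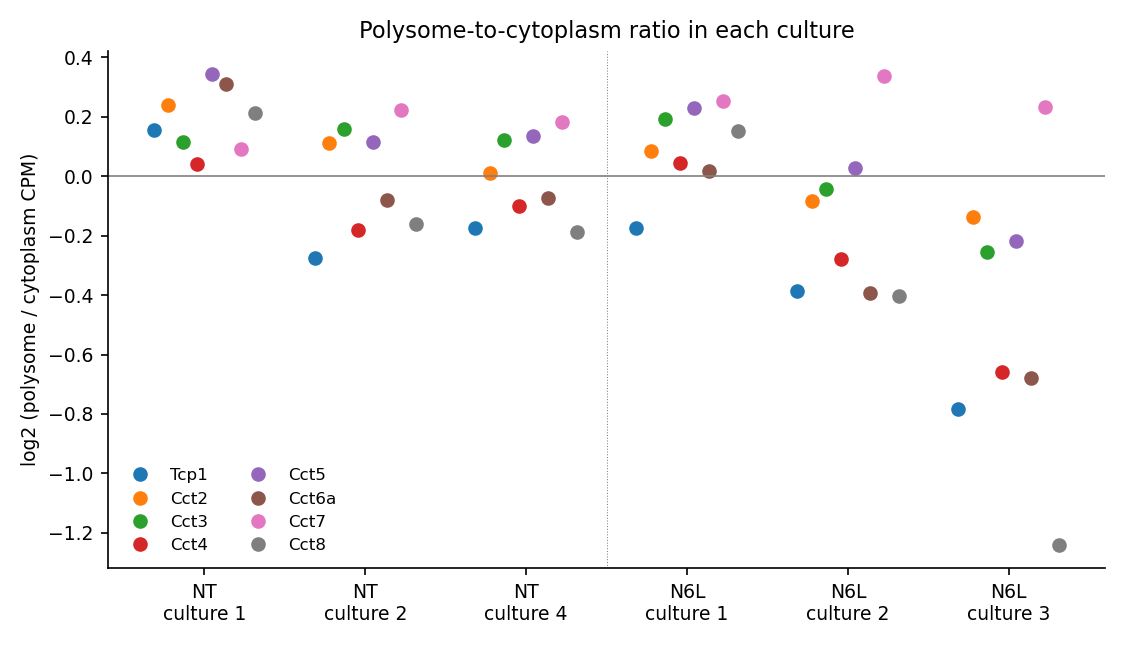
Log2 ratio of polysomal to cytoplasmic CPM of each CCT subunit in each culture, one colour per subunit, with the line at 0 marking equal CPM. The points of a culture span 0.30 to 0.50 in NT and reach from -1.24 (Cct8) to 0.23 (Cct7) in N6L culture 3.

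The translational index is the difference between the polysomal and the cytoplasmic log2 change and asks whether N6L moved an mRNA on polysomes more than in the cytoplasm. No subunit passed at an adjusted p under 0.05 in edgeR, with 0.0% of all genes called, and none had an unadjusted p under 0.05, which 7.73% of all genes had. DESeq2 called 0 subunits as well, and 0 genes in all. The index was below 0 for 7 of 8 subunits and for 49.3% of all genes. It was lowest for Cct8 (-0.38, 95% interval -1.06 to 0.30) and Cct6a (-0.38, 95% interval -0.91 to 0.15), followed by Tcp1 (-0.33). For Cct7 it was 0.11 (95% interval -0.28 to 0.49), or -0.033 with offsets for length and GC content. Without the polysomal library of N6L culture 3 the index was -0.15 for Cct8, -0.25 for Cct6a and -0.23 for Tcp1. Leaving out whole cultures moved Cct8 between -0.71 (without N6L culture 1) and -0.084 (without N6L culture 3), Cct6a between -0.58 and -0.24 and Tcp1 between -0.48 and -0.18, so the order of the subunits is not firm. The median of the 8 was -0.18, beside 0.01 over all genes tested, and these intervals leave room for a change in either direction.

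The balance of the complex was expressed as the share of each subunit in the summed counts per kb of the 8 genes, a measure that does not depend on scaling between libraries. In the NT cytoplasm the shares ran from 20.9% ± 2.38 (SD, n = 3) for Cct5 to 5.93% ± 0.184 for Cct8. The shares of Cct2 and Cct3 were lower with N6L in both fractions and without overlap between treatments. Cct2 took 15.5% ± 0.769 in NT and 13.5% ± 0.346 in N6L in the cytoplasm, and 15.8% ± 0.891 and 13.97% ± 0.988 in polysomes (SD, n = 3, exact permutation p = 0.1 in each). Cct3 took 15.4% ± 0.647 and 13.2% ± 0.423 in the cytoplasm and 15.8% ± 1.48 and 13.7% ± 0.532 in polysomes (SD, n = 3, exact permutation p = 0.1 in each).

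The cytoplasmic shares of Cct4 and Cct8 were higher with N6L, again without overlap. The shares of a library depend on each other, so some rise when others fall. The cytoplasmic levels of Cct4 and Cct8 themselves overlapped between treatments, with log2 changes of -0.13 and 0.07 (edgeR, adjusted p = 0.577 and 0.846). Cct4 took 7.58% ± 0.355 in NT and 8.41% ± 0.528 in N6L, and Cct8 took 5.93% ± 0.184 and 7.53% ± 0.885 (SD, n = 3, exact permutation p = 0.1 in each). In polysomes the treatments overlapped for both, with 6.73% ± 0.147 in NT and 7.33% ± 0.817 in N6L for Cct4 and 5.40% ± 0.418 and 5.81% ± 1.49 for Cct8. Cct7 took 14.6% ± 1.06 in NT and 13.4% ± 0.759 in N6L in the cytoplasm and 15.3% ± 0.673 and 17.4% ± 2.13 in polysomes, both with overlap. Altogether 6 of the 16 combinations of subunit and fraction did not overlap. Each had the smallest p that 3 against 3 cultures allow, 0.1, and 0.267 after adjustment over the 16 exact permutation tests, so none passed.

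**Figure D4:**
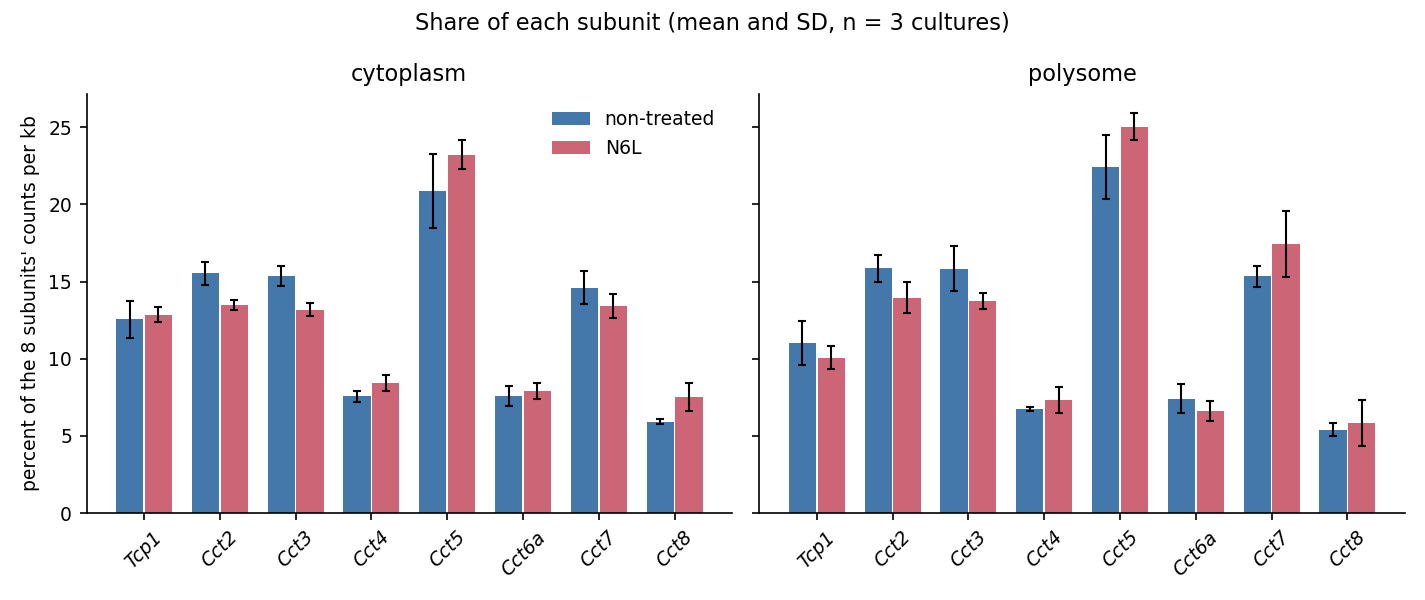
Share of each subunit in the summed counts per kb of the 8 CCT genes, in percent, in the cytoplasm (left) and polysomes (right); bars start at 0 and show means with SD, n = 3 cultures per treatment. With N6L (red) Cct2 and Cct3 take smaller shares than in non-treated cells (blue) in both panels, and Cct5 takes the largest share throughout.

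Across the 12 libraries the subunits did not follow a single pattern. Over log2 CPM, Tcp1 and Cct6a were the most alike (r = 0.96), followed by Cct2 and Cct3 (r = 0.95) and Cct4 and Cct8 (r = 0.92), whereas Cct7 and Cct8 had r = -0.05. Each subunit was also set against the mean of the other 7. Cct6a followed it most closely (r = 0.92) and Cct7 least (r = 0.50), and the libraries of all pairs share treatment, fraction and depth. Of 8951 other genes that averaged 10 CPM or more, the 8 whose levels were most like the mean of the subunits were Sf3a3 (r = 0.99), Tacc3 (0.98), Pparg (0.97), Vrk1 (0.97), Fh1 (0.96), Gars (0.96), Cdc25c (0.96) and Psmd6 (0.96).

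Among the relatives of CCT, Cct6b, the testis paralogue of Cct6a, was not tested in the main fit because it had 8 to 30 reads per group. Mkks was lower with N6L in the cytoplasm (log2 change -0.61 ± 0.19 SE, adjusted p = 0.0273) and in polysomes (-0.64 ± 0.19 SE, adjusted p = 0.0455), a call that was lost without the polysomal library of N6L culture 3 (-0.63, adjusted p = 0.0594 in edgeR). Its chaperonin-like partners Bbs10 (0.49 and 0.59 in the 2 fractions) and Bbs12 (-0.25 and -0.17) did not pass. Of the mitochondrial chaperonin, Hspe1 was lower in the cytoplasm (-1.04 ± 0.19 SE, adjusted p = 0.00271) and in polysomes (-0.79 ± 0.19 SE, adjusted p = 0.0210), whereas Hspd1 (0.03 and -0.41) did not pass.

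The partners of CCT and a complex of similar stoichiometry, the 20S proteasome core, were read in the same fits. In the cytoplasm 5 of 6 prefoldin genes were lower (median log2 change -0.79), led by Pfdn6 (-1.39) and Pfdn1 (-1.14). So were 12 of 14 proteasome genes (median -0.60), led by Psmb3 (-1.20) and Psmb6 (-0.95). Beside these stood 3 of 8 CCT subunits (median -0.23) and 13.8% of all genes. With offsets for length and GC content the medians were -0.55 for prefoldin, -0.41 for the proteasome and -0.34 for CCT. Lower were then 3 of 6, 10 of 14 and 4 of 8 genes, beside 17.9% of all genes. Without offsets, the counts in polysomes were 1 of 6 and 2 of 14, beside 4 of 8 CCT subunits and 3.66% of all genes. The medians were -0.40 for prefoldin, -0.31 for the proteasome and -0.45 for CCT, and -0.28, -0.21 and -0.52 with the offsets. Without the polysomal library of N6L culture 3 this order was turned around, with 3 of 6 prefoldin genes, 6 of 14 proteasome genes and 2 of 8 CCT subunits lower, beside 5.72% of all genes, and medians of -0.50, -0.47 and -0.37. Tubulin folding cofactors were lower in the cytoplasm for 3 of 6 genes, Tbca (-1.02), Tbcb (-1.02) and Arl2 (-0.9998), and in polysomes for Tbca (-0.59). Of 10 genes of the R2TP/PAQosome, a chaperone for assembling complexes, 4 were lower in the cytoplasm, led by Ruvbl2 (-0.82), and Ecd, named after its value was seen, was higher (0.37). Of the regulators, 0 of 3 tested phosducin-like and thioredoxin-like genes passed in either fraction, at an unadjusted p under 0.05 too, and Pdcl2 had no read.

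In the cytoplasm 7 of 13 actin and tubulin genes were lower, with Tuba1b (log2 change -1.26), Tubb5 (-0.93) and Tubg1 (-0.92) at the head, and Actg1 was higher (1.04, adjusted p = 0.0118). Over all genes 13.8% were lower there and 14.5% higher. In polysomes Tubb5 was lower (-0.65) and Tuba1a higher (0.58), 2 of 13, where 9.67% of all genes were called. Without the polysomal library of N6L culture 3, 3 of 13 were lower and 0 higher, beside 5.72% and 6.30% of all genes. Tuba1a (0.43, adjusted p = 0.0911 in edgeR) then no longer passed. Of 15 WD40 proteins and other clients, Stat3 (1.27) and Gnb4 (0.59) were higher and Ccne1 (-1.105) lower in the cytoplasm. Stat3 (0.87) and Ccne1 (-0.93) also passed in polysomes. With offsets for length and GC content Stat3 (0.95) and Ccne1 (-1.04) still passed in the cytoplasm. Gnb4 (0.080, adjusted p = 0.865 in edgeR) then did not.

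In N6L cells the lists lay apart when polysomes were set against cytoplasm. There 5 of 6 prefoldin, 4 of 6 cofactor, 6 of 13 actin and tubulin and 10 of 14 proteasome genes were higher in polysomes, while 18.4% of all genes were, and 0 of 8 CCT subunits were. The medians were 0.66, 0.74, 0.48 and 0.65, beside -0.15 for CCT, and the difference between lists was not tested. The chaperonin relatives had a median of -0.33, with 1 of 5 higher, and the regulators -0.11, with 1 of 3. With offsets for length and GC content these were -0.016 and 0.34. Without the polysomal library of N6L culture 3 they were 0.049 and -0.0032. The relatives then numbered 6, since Cct6b passed the filter there, so their medians cover different genes. The R2TP/PAQosome had 0.36, with 5 of 10 higher, and the WD40 and other clients 0.27, with 3 of 15 higher and 2 lower. For these 2 lists the offsets gave 0.13, with 1 of 10 higher, and 0.11, with 4 of 15 higher and 0 lower. Leaving out the polysomal library of N6L culture 3 gave 0.31, with 4 of 10 higher, and 0.21, with 1 of 15 higher and 2 lower. Prefoldin and proteasome transcripts were short, with median lengths of 1086 and 1163 bases against 2418 bases for the CCT subunits and 2751 bases over all genes. With offsets for length and GC content the medians were 0.21 for prefoldin, 0.17 for the cofactors, 0.16 for actins and tubulins, 0.27 for the proteasome and -0.13 for CCT, with 2, 1, 0, 4 and 0 genes higher, beside 9.56% of all genes. Without the polysomal library of N6L culture 3, the counts were 2, 2, 1, 9 and 0 in the same order, beside 7.005% of all genes, and the medians 0.49, 0.35, 0.32, 0.51 and -0.059. With the culture as a replicate block, which pairs the fractions of a lysate, they were 5, 4, 11, 12 and 1 genes higher, beside 26.1% of all genes.

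**Figure D5:**
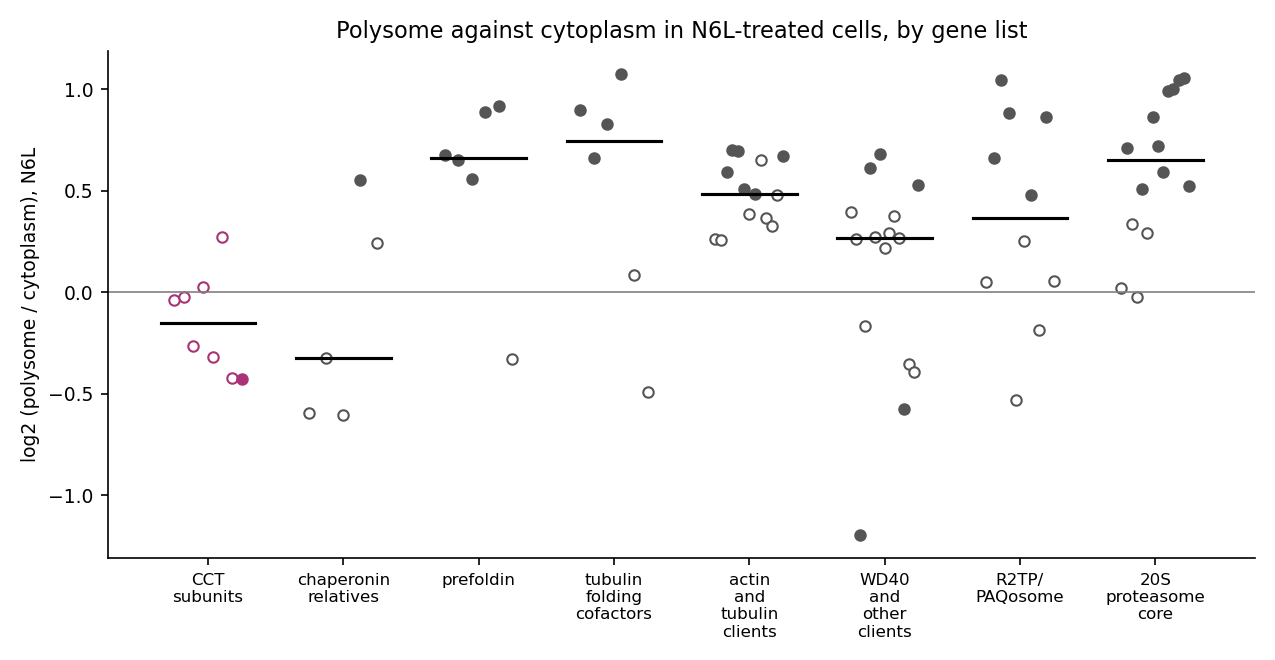
Log2 difference of polysomes against cytoplasm in N6L-treated cells for the CCT subunits (magenta) and 7 lists of related genes (grey); each circle is a gene, filled at an adjusted p under 0.05, and the bar is the median of the list. The CCT median is -0.15, beside -0.33 for the chaperonin relatives, 0.66 for prefoldin and 0.65 for the 20S proteasome core.

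Several limits belong to single subunits. Tcp1 overlaps Acat3 by 1255 bases and Mrpl18 by 645 bases, and Cct6a overlaps Psph by 452 bases on the opposite strand, and Cct7 and Cct8 overlap Pradc1 and Usp16. The library kit keeps the strand, but the strand setting of the counting is not stated, so a part of these counts may belong to the neighbour. GENCODE vM21 gives Cct6a no coding sequence, so its length, CPM per kb and share rest on a transcript not annotated as coding. The named pseudogenes Tcp1-ps1 and Cct3-ps1 held 1 and 4 reads over the 12 libraries.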

How the data were processed

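Cytoplasmic and polysomal poly(A) RNA (TruSeq Stranded mRNA) of 3 N6L-treated and 3 non-treated cultures was sequenced. Each of the 12 libraries was deposited as 4 technical replicates, as raw counts of reads per gene without normalization. For these counts the authors used bcl2fastq 2.18.0.12, STAR with the mm10 genome and HTSeq 0.5.3, with strand and mapping options not stated. Groups came from the labels, which give conflicting culture numbers for 3 technical replicates assigned to N6L culture 2 cytoplasm. Technical replicates were summed because their counts spread little beyond sampling noise (chi-square divided by its degrees of freedom, 1.02 to 1.04). Nothing states how far the cultures were independent, so p-values measure the spread between them.

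Symbols, coordinates, length and GC content were taken from GENCODE vM21 (GRCm38), which held 50376 of the 50600 genes. Counts were filtered with filterByExpr, given TMM factors and tested by the quasi-likelihood method of edgeR 4.0.16 under R 4.3.3 (glmQLFit, glmQLFTest, 1 mean per group of fraction and treatment), with Benjamini-Hochberg adjustment over 13889 genes and a limit of 0.05. SEs follow from the F statistic. Ratios per culture used log2 CPM with a prior count of 2, and ratios and shares were compared by exact two-sided permutation tests (scipy 1.17.1). Named are all 8 subunits, the chaperonin relatives, at most 4 genes per list and comparison with the largest change past the limit, and the 8 genes most like the subunits. The subunits, gene lists and tests were chosen with earlier results of these data known.

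The fractions of a culture pair because they come from a single lysate. Their deviations from group means correlated with r = 0.364 (NT culture 1), 0.452 (NT 2), 0.645 (NT 4), 0.0368 (N6L 1), 0.199 (N6L 2) and 0.230 (N6L 3). Alternatives were RLE size factors, library totals, other filters, DESeq2 1.42.0, technical replicate a alone, the conflicting replicates left out, fits of 2 groups, the replicate block, length and GC offsets, each culture left out and, chosen after seeing the data, the polysomal library of N6L culture 3 left out.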

Additional observations from a re-analysis of the deposited data

How the results depend on the processing

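The number of subunits called was 0 in the cytoplasm with library totals alone (28.4% of all genes called) and without the filter (17.0%), against 3 (28.3%). In polysomes it was 2 with library totals alone, 0 in a fit of the 2 groups, where 328 genes were called in all, and 2 with the number of the culture as a replicate block, against 4, and 6 with length and GC offsets, where 2976 of 13889 genes were called in place of 1343. NT and N6L cultures share only a number (correlations 0.228 and 0.0455 in the cytoplasm, 0.296 and 0.00756 in polysomes). Number 3 occurs only in N6L and number 4 only in NT, so with this block only numbers 1 and 2 link the treatments. Between fractions in N6L the number of subunits called was 0 with RLE size factors (39.5% of all genes called) and without the filter (20.8%). It was also 0 in a fit of the 2 groups (33.2%) and with length and GC offsets (17.1%). It was 2 with DESeq2 (43.6%) and with the replicate block (53.7%), against 1 (39.0%). The block changed no other count of subunits called. Between fractions in NT no setting called a subunit, while the genes called in all numbered 29, or 647 without the filter, 281 with DESeq2 and 203 with the block.

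The median log2 change in the cytoplasm was -0.083 with library totals, -0.12 with the number of the culture as a replicate block and -0.34 with the offsets. Between fractions in NT the median was 0.021 with library totals. Without single cultures or the polysomal library of N6L culture 3, the calls ranged from 0 to 3 in the cytoplasm, 0 to 4 in polysomes and 0 to 3 between fractions in N6L. The medians ranged from -0.30 to -0.20 in the cytoplasm, from -0.0052 to 0.12 between fractions in NT, from -0.30 to -0.051 between fractions in N6L (-0.28 with library totals, against -0.15) and from -0.33 to -0.069 for the index, against -0.18. Subunits whose ratio per culture did not overlap numbered 0 with library totals and 1 to 8 without single cultures, against 1, with 8 without N6L culture 1. Shares without overlap numbered 3 with technical replicate a alone and 6 to 11 without single cultures, against 6, with 11 without NT culture 2. With a culture left out, no overlap is easier to reach, for ratios and shares alike. The ratios of 29.7% of all genes did not overlap with every culture kept, and no such share is given without single cultures.

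No value that passed the test turned its sign. Among those that did not pass, sign turned in the cytoplasm for Cct4 (0.013) and Cct5 (0.016) with library totals and Cct8 (-0.038) with the offsets. Between fractions in NT they were Cct6a (-0.012) with library totals, and Cct4 (0.039) and Cct8 (0.15) with the offsets (0.040 and 0.15 with the block added). Between fractions in N6L they were Cct3 with RLE size factors (0.00079), DESeq2 (0.00087) and technical replicate a alone (0.026), and Cct5 with library totals (-0.10), the offsets (-0.15) and the offsets with the block (-0.17). The index of Cct7 was -0.033 with the offsets and -0.040 with the block added. Without single cultures or that library, the ranges that crossed 0 were -0.21 to 0.010 for Cct5 and -0.037 to 0.15 for Cct8 in the cytoplasm, -0.074 to 0.12 for Cct6a and -0.17 to 0.017 for Cct8 between fractions in NT, and -0.11 to 0.0082 for Cct2, -0.15 to 0.086 for Cct3 and -0.10 to 0.14 for Cct5 between fractions in N6L. The causes were not tested. The other settings kept all calls within 1.5 times their number, and the smallest library held 19519911 counts.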
